A study of Mus musculus with 4 samples.

Results

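The CC chemokine ligands of macrophages were examined in bone marrow-derived macrophages (BMDMs) after coculture with MC38, a cell line from a mouse colon tumor. The members were the 10 genes Ccl2, Ccl3, Ccl4, Ccl5, Ccl6, Ccl7, Ccl8, Ccl9, Ccl12 and Ccl22, taken by their gene symbols from the 21878 genes of the count table. Ccl2, Ccl7 and Ccl12 formed the monocyte-attracting group and were set beside the other 7 members. The series held 2 libraries from BMDMs of anti-Act1 mice, in which Act1 was knocked down in macrophages, and 2 from wild type (WT) mice. All mice were C57BL/6 and 8 weeks old, the macrophages had been grown from bone marrow in M-CSF, and every library came from cells cocultured for 48 h, so no library held macrophages without tumor cells. The time is that of the sample labels, and a legend of the study gives a shorter one. Per the study's methods, macrophages and tumor cells were kept apart by a transwell insert. The promoter that restricts the knockdown to macrophages was not given in the sources used here, and the study's methods call the 2 libraries of a genotype biological replicates without saying whether they came from separate mice. The p-values therefore measure only the spread between these libraries, estimated in part across all genes tested.

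CC chemokines are small secreted proteins with a pair of adjacent cysteines near the start of the mature protein, and they guide leukocytes by way of G protein-coupled receptors. Ccl2, Ccl7 and Ccl12 act on Ccr2 and draw inflammatory monocytes out of blood and bone marrow. Ccl3, Ccl4 and Ccl5 attract monocytes and T cells, Ccl6 and Ccl9 are rodent ligands of Ccr1, Ccl8 of the mouse acts on Ccr8, and Ccl22 draws regulatory T cells through Ccr4. Act1, encoded by Traf3ip2, is an adaptor of the IL-17 receptor that feeds into NF-κB and into the stability of chemokine mRNAs.

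To show how alike the transcripts of the Ccr2 ligands and of their neighbour Ccl8 are, 54 bases of coding sequence around the codons of the adjacent cysteines, in capitals, are given from GENCODE M21 (GRCm38). The 4 genes lie in 1 run of CC ligand genes on chromosome 11.
Ccl2: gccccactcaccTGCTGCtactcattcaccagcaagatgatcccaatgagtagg
Ccl7: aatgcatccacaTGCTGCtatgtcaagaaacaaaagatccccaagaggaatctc
Ccl12: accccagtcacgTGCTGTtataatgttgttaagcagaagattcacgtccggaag
Ccl8: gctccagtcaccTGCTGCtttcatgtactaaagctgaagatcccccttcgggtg
In these stretches, which were not realigned beyond the cysteine codons, Ccl8 and Ccl12 were identical at 38 of 54 bases (70.4%). Ccl2 matched Ccl8 at 30, Ccl12 at 29 and Ccl7 at 24. Ccl7 matched Ccl8 at 20 and Ccl12 at 19, so the Ccr2 ligands were not closer to each other than to Ccl8. The longest run of identical bases in the whole transcripts was 23 between Ccl2 and Ccl7 and 25 between Ccl6 and Ccl9, and 17 between Ccl2 and Ccl12. No run of 50 bases of 9 members was found in a transcript of any other gene on either strand. Ccl9 shared 59 of its 2957 runs (2%) with other genes. No member had an exon overlapping an exon of another gene.

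The libraries held 55435063 to 75062945 counts, and 3 counts, the level below which a gene with 0 counts could still lie, came to 0.0395 to 0.0549 CPM (counts scaled to library size after TMM normalization, which compares genes between libraries but not with each other). These limits cover counting error only. The first principal component held 79.6% of the variance and separated the genotypes. Traf3ip2, the targeted gene, was at 6.98 and 7.54 CPM in the WT libraries and at 9.63 and 7.84 CPM in the libraries labelled anti-Act1. Its transcript was thus not lower there (log2 fold change 0.27, SE 0.12, adjusted p = 0.117, edgeR). The study reports markedly lower Act1 expression in BMDMs of anti-Act1 mice. Its legend does not say whether that was mRNA or protein. Ddx3y, a gene of the Y chromosome, was at 88.8 and 97.0 CPM in WT and had 0 counts in both anti-Act1 libraries, and all 4 Y-linked genes examined were lower, so the sex of the mice and the genotype label cannot be told apart in any comparison here. Macrophage markers summed to 24570 to 26254 CPM in the 4 libraries, of which Lyz2 alone made 15809 to 17734 CPM. Of the epithelial markers, which would mark MC38 cells, Krt8, Krt18 and Cldn4 had 0 counts in every library, and all 7 together reached at most 0.464 CPM. With 2 libraries against 2, an exact permutation test cannot go below p = 0.333, so all tests below are edgeR's quasi-likelihood test fitted across 12494 genes with Benjamini-Hochberg adjustment over all of them, and a gene was called at an adjusted p under 0.05.

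The 10 members spanned a 3430-fold range of level. By FPKM, the authors' value per length of gene, the order of the mean over the 4 libraries ran from Ccl6 at 1024 (873.8 to 1160.0) through Ccl9 at 399.5 (364.9 to 423.8) and Ccl5 at 281 (273.9 to 286.4) to Ccl12 at 0.299 (0.203 to 0.447). Ccl4 followed at 34.3 and Ccl3 at 31.7 FPKM, and their ranges overlapped. Ccl2 stood at 12.7 FPKM (8.68 to 16.9) and Ccl7 at 5.67 FPKM (4.08 to 7.45), each apart from its neighbours in the order. Ccl8 at 0.874, Ccl22 at 0.563 and Ccl12 at 0.299 FPKM came last, and the ranges of Ccl8 and Ccl22 and those of Ccl22 and Ccl12 overlapped. Ccl6 and Ccl9 together took 91.7% to 93.0% of the members' counts in each library, which are not scaled to gene length. By FPKM they stood at 1106 and 411 of a summed 1896 in WT replicate 1. In anti-Act1 replicate 2 they stood at 874 and 365 of 1601. The order of the group means was the same in both genotypes for the 7 most abundant members, while Ccl22 was above Ccl8 in WT (0.665 against 0.478 FPKM) and Ccl8 above Ccl22 in anti-Act1 (1.27 against 0.461 FPKM).

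**Figure D1:**
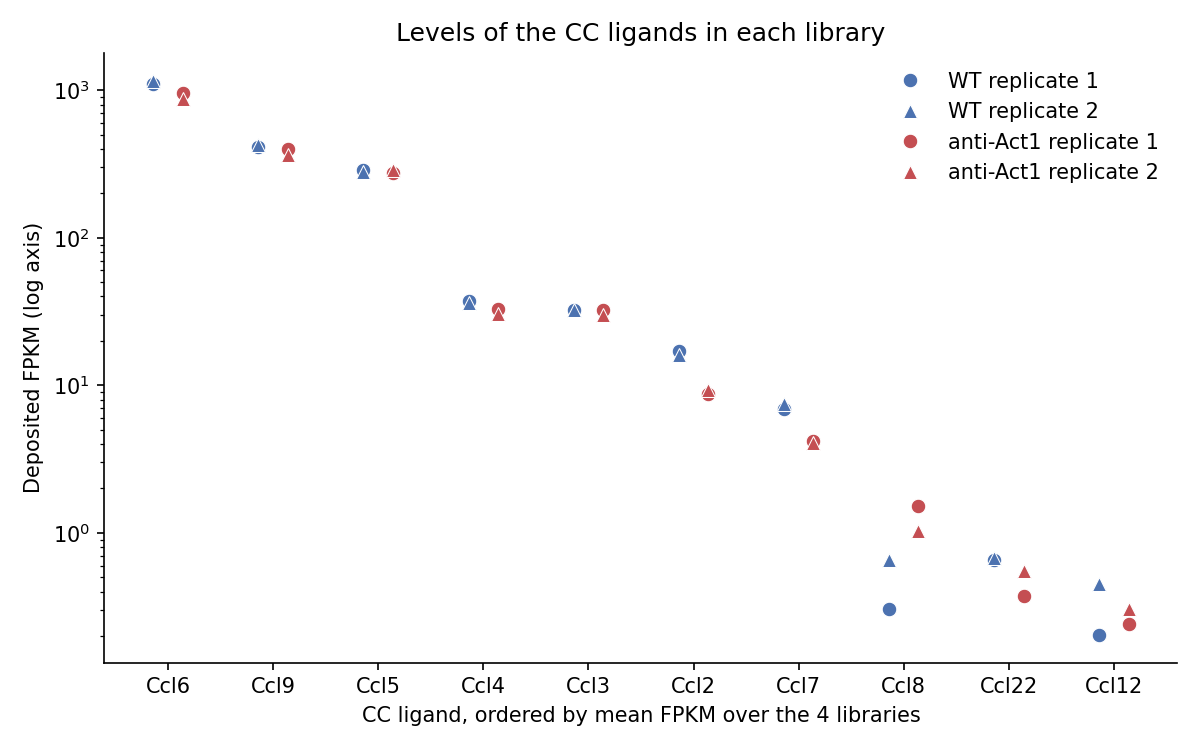
Deposited FPKM (log axis) of the 10 CC ligands in each of the 4 libraries, ordered by the mean over all libraries; circles and triangles are replicates 1 and 2, blue is WT and red is anti-Act1. Ccl6 lies near 1024 FPKM and Ccl12 near 0.299 FPKM, and the red points of Ccl2 and Ccl7 lie under the blue ones while those of Ccl8 lie over them.

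The comparison of the genotypes asked whether macrophages labelled anti-Act1 carried different amounts of CC ligand mRNA from WT macrophages when both were cocultured with MC38 cells. Of the 10 members, 4 passed the test: Ccl2, Ccl7 and Ccl6 were lower in anti-Act1 and Ccl8 was higher. Over all genes tested 20.7% passed, 9.76% lower and 10.9% higher. The CPM of the groups did not overlap for 7 of the 10 members, 6 of them lower in anti-Act1 and 1 higher, beside 57.1% of all genes not overlapping and 28.7% not overlapping and lower. The median log2 fold change (anti-Act1 minus WT) was -0.22 over the 10 members and -0.00457 over all genes tested. In these bulk libraries, fewer cells making a ligand and less of its mRNA in each cell cannot be told apart.

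Ccl2, the main monocyte attractant of the family, had 877 and 971 counts in WT and 433 and 415 in anti-Act1, or 13.6 and 12.8 CPM against 7.01 and 7.60 CPM. Both anti-Act1 libraries lay far under both WT libraries. The means were 13.2 ± 0.552 and 7.31 ± 0.416 CPM (SD, n = 2 each), and Ccl2 fell by 44.6% (log2 fold change -0.85, SE 0.11, 95% interval -1.07 to -0.64, adjusted p = 1.62e-08, edgeR).

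Ccl7, which also attracts monocytes through Ccr2 and reaches eosinophils through Ccr3, had 357 and 448 counts in WT and 208 and 181 in anti-Act1. Its level was 5.53 and 5.90 CPM in WT and 3.37 and 3.31 CPM in anti-Act1. The groups again did not overlap, and the anti-Act1 libraries were almost equal. Ccl7 fell by 41.5% (log2 fold change -0.77, SE 0.15, 95% interval -1.08 to -0.47, adjusted p = 8.19e-05, edgeR).

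Ccl12, the remaining ligand of Ccr2 in the group, was close to the limit of detection. It had 7 and 18 counts in WT and 8 and 9 in anti-Act1, or 0.108 and 0.237 CPM against 0.130 and 0.165 CPM. The anti-Act1 libraries lay between the WT libraries. The log2 fold change was -0.26 (SE 0.70) with a 95% interval of -1.68 to 1.16 (adjusted p = 0.846, edgeR), so a difference of the size of that of Ccl2 or Ccl7 was not detectable at this depth.

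Of the monocyte-attracting group, 2 of 3 members thus passed the test, both lower in anti-Act1, and the median log2 fold change was -0.77. Of the other 7 members, 1 was lower and 1 higher, and the median was -0.10. Over all genes tested, 9.76% were called lower and 10.9% higher. Together the counts of Ccl2, Ccl7 and Ccl12 made 0.634% and 0.605% of the counts of all 10 members in WT and 0.376% and 0.426% in anti-Act1. Per length of gene the share was 1.27% and 1.23% of the summed FPKM in WT and 0.766% and 0.854% in anti-Act1. The group thus held a smaller part of the members' reads in both anti-Act1 libraries, nearly all of it Ccl2 and Ccl7. The counts of Ccl2 divided by those of Ccl7 were 2.46 and 2.17 in WT and 2.08 and 2.29 in anti-Act1, which overlap, while Ccl2 divided by Ccl5 was 0.0899 and 0.0878 in WT and 0.0480 and 0.0491 in anti-Act1, which do not. Whether the monocyte-attracting genes differed from the other members as a group was not tested, since members are not replicates of a condition.

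**Figure D2:**
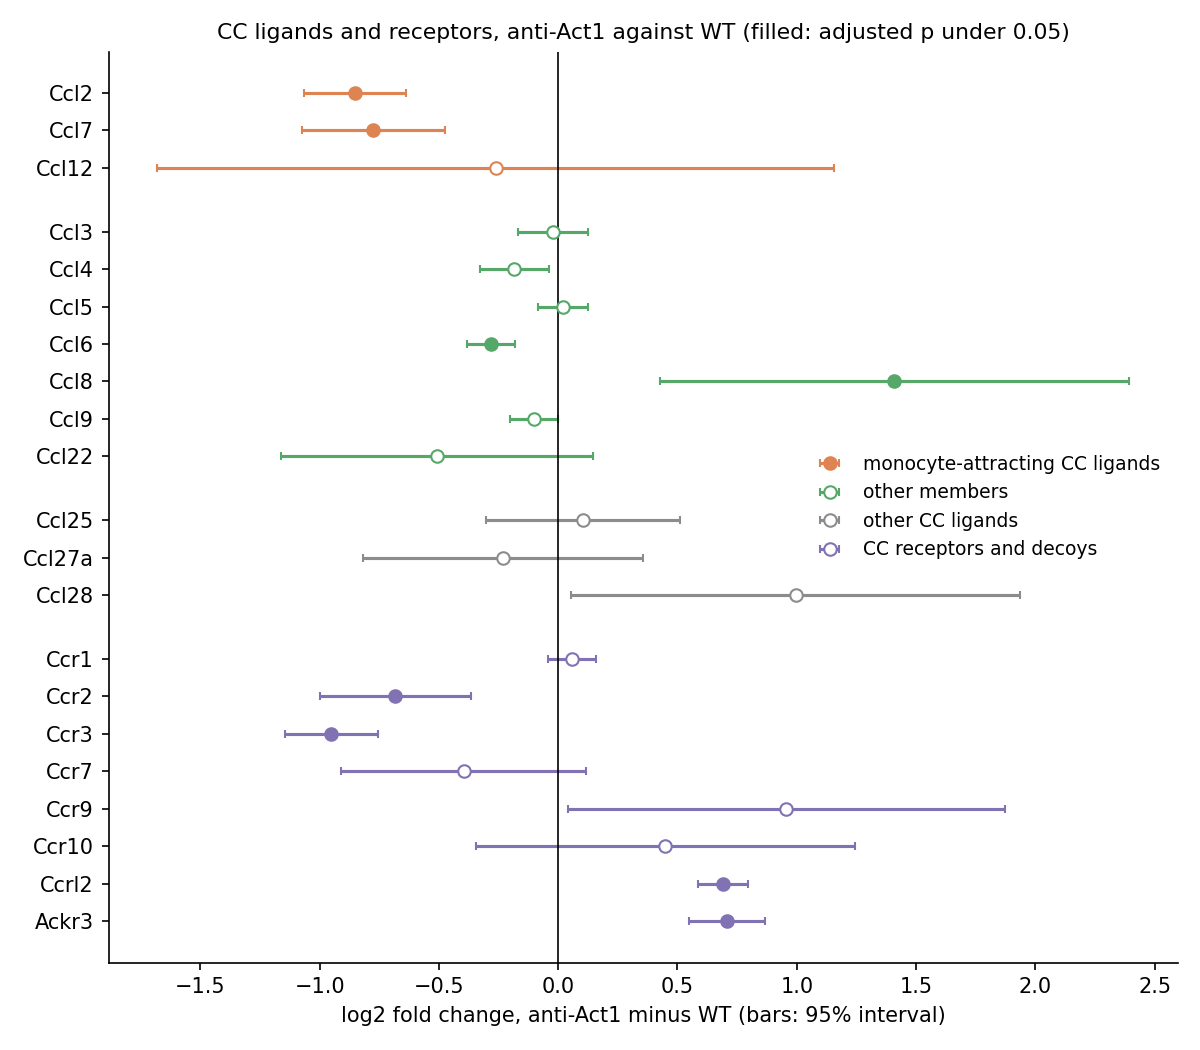
Log2 fold change (anti-Act1 minus WT) of the 10 members, of the other CC ligands tested and of CC receptors and decoys, with 95% intervals from edgeR; filled points had an adjusted p under 0.05. Ccl2 at -0.85 and Ccl7 at -0.77 lie with Ccr2 and Ccr3 on the left, Ccl3 and Ccl5 sit on 0, and Ccl8 at 1.41 lies on the right with a wide interval.

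Ccl3 and Ccl4, known as macrophage inflammatory proteins, stayed close to WT. Ccl3 was at 25.3 CPM in both WT libraries and at 25.8 and 23.9 CPM in anti-Act1. The WT libraries lay between the anti-Act1 ones, the log2 fold change was -0.02 (SE 0.07), and its 95% interval of -0.17 to 0.13 corresponds to changes from -11.1% to 9.10% (adjusted p = 0.880, edgeR). Ccl4 was at 28.7 and 27.6 CPM in WT and at 25.5 and 24.0 CPM in anti-Act1. Both anti-Act1 libraries were lower, but the difference of -0.18 (SE 0.07, 95% interval -0.33 to -0.04, adjusted p = 0.0641, edgeR) did not pass the test. Its call depended on the method: limma on log2(FPKM + 1) called Ccl4 lower (-0.20, adjusted p = 0.0247), as did limma with 0.1 added (adjusted p = 0.0251) and edgeR without composition normalization (adjusted p = 0.0416). The counts of Ccl3 divided by those of Ccl4 were 0.881 and 0.916 in WT and 1.01 and 0.998 in anti-Act1.

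Ccl5, the T cell and monocyte attractant also called RANTES, was the third most abundant member. It was at 151 and 146 CPM in WT and at 146 and 155 CPM in anti-Act1. The ranges of the groups overlapped, and each genotype had 1 library near 146 CPM and 1 above 150 CPM. The log2 fold change was 0.02 (SE 0.05), and the 95% interval of -0.09 to 0.13 corresponds to changes from -5.81% to 9.09% (adjusted p = 0.846, edgeR).

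Ccl6 and Ccl9, the abundant rodent ligands of Ccr1, lie side by side on chromosome 11. Ccl6 was at 1577 and 1647 CPM in WT and at 1380 and 1274 CPM in anti-Act1, from 69555 counts or more in every library. Both anti-Act1 libraries were under both WT libraries. Ccl6 fell by 17.7% (log2 fold change -0.28, SE 0.05, 95% interval -0.38 to -0.18, adjusted p = 2.69e-05, edgeR), from 1612 ± 49.5 to 1327 ± 74.99 CPM (SD, n = 2 each). Only limma on log2(FPKM + 1) without a filter, of 14 alternatives, lost the call (adjusted p = 0.0877). Ccl9 was at 1227 and 1261 CPM in WT and at 1203 and 1114 CPM in anti-Act1. Its groups did not overlap either, but they almost touched, and its log2 fold change of -0.10 (SE 0.05, adjusted p = 0.156, edgeR) did not pass, with a 95% interval that ran from -13.2% to -0.050%. Leaving out anti-Act1 replicate 1 gave a log2 fold change of -0.16 and leaving out replicate 2 gave -0.047, neither called. The counts of Ccl6 divided by those of Ccl9 were 1.29 and 1.31 in WT and 1.15 and 1.14 in anti-Act1. The members' summed counts, not scaled to gene length, were 3030 and 3127 CPM in WT and 2792 and 2603 CPM in anti-Act1. The difference in mean Ccl6 of 286 CPM made 75.01% of that in the sum.

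Ccl8 was the 1 member that was higher in anti-Act1, and it was among the 3 rarest. It had 10 and 25 counts in WT and 48 and 29 in anti-Act1, or 0.155 and 0.329 CPM against 0.777 and 0.531 CPM. The groups did not overlap, but the upper WT and the lower anti-Act1 library differed by only 4 counts. The log2 fold change was 1.41 (SE 0.49, 95% interval 0.43 to 2.39, adjusted p = 0.0323, edgeR). The call was lost without anti-Act1 replicate 1 (1.11, adjusted p = 0.345), without anti-Act1 replicate 2 (1.65, adjusted p = 0.0603) and without WT replicate 1 (0.99, adjusted p = 0.266), and it held without WT replicate 2 (2.07). DESeq2 (1.43, adjusted p = 0.138) and limma on log2(FPKM + 1) without a filter (0.62, adjusted p = 0.0898) did not call it. The study's own sequencing results came from these same libraries, so the direction of Ccl8 or of any other member here is not independent evidence.

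Ccl22, the ligand of Ccr4, had 76 and 92 counts in WT and 42 and 55 in anti-Act1. Its level was 1.18 and 1.21 CPM in WT and 0.680 and 1.01 CPM in anti-Act1. Both anti-Act1 libraries were lower but differed from each other by more than the upper of them did from WT, and the log2 fold change of -0.51 (SE 0.32, 95% interval -1.16 to 0.15, adjusted p = 0.30, edgeR) did not pass. The log2 fold change became -0.24 with anti-Act1 replicate 1 left out and -0.81 with replicate 2 left out, neither called.

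**Figure D3:**
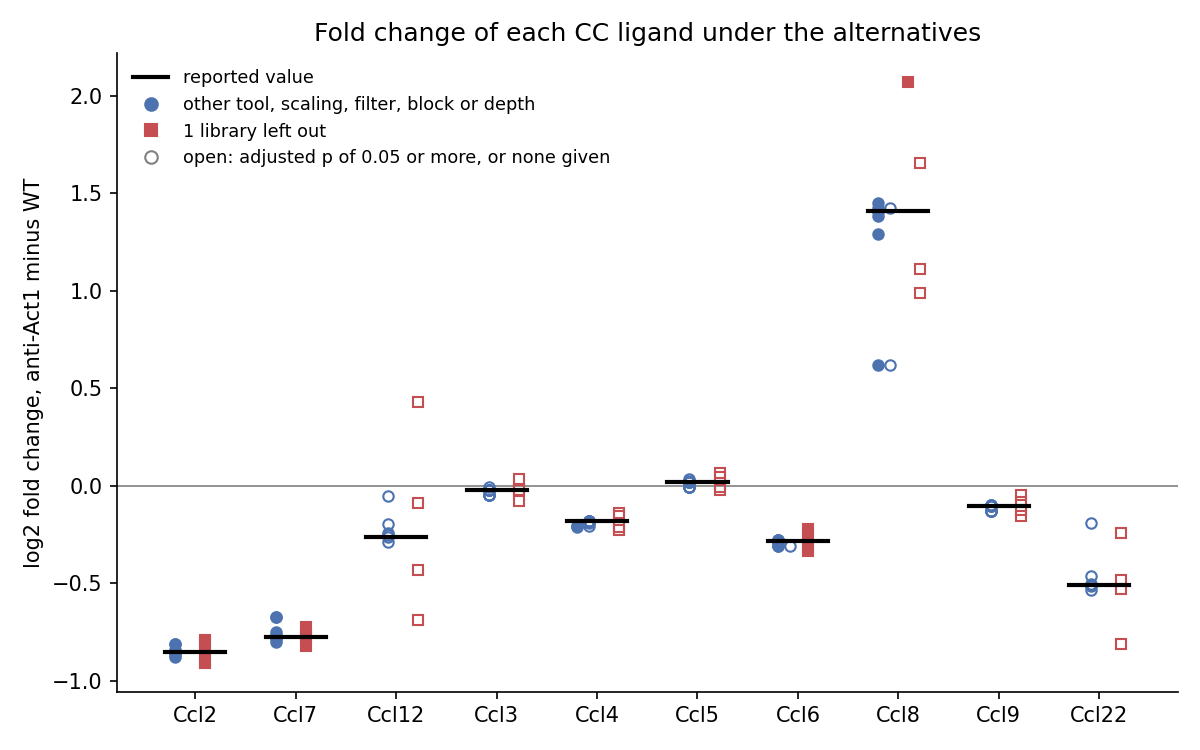
Log2 fold change (anti-Act1 minus WT) of each member as reported (black line), under other tools, scalings and filters (blue circles) and with 1 library left out (red squares); open symbols had an adjusted p of 0.05 or more, or none. Ccl2 stays between -0.91 and -0.79 and Ccl7 between -0.82 and -0.67, Ccl8 spreads from 0.62 to 2.07, and Ccl12 lies on both sides of 0.

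The order of the genes on chromosome 11, from RefSeq (GRCm38.p6), put the monocyte attractants in 1 run and most of the rest in another. Ccl2, Ccl7, Ccl11, Ccl12, Ccl8 and Ccl1 followed each other without any other protein-coding gene, then came 25 other protein-coding genes, and then Ccl5, Ccl9, Ccl6, Ccl3 and Ccl4. Ccl22 lies on chromosome 8, beside Ccl17 but for 1 gene. Within the first run, Ccl2 and Ccl7 were lower in anti-Act1, Ccl12 was not called, Ccl8 was higher, and Ccl11 and Ccl1 had 0 counts in every library. In the second run only Ccl6 was called. Some neighbours had the same call (Ccl2 and Ccl7, Ccl5 and Ccl9, Ccl3 and Ccl4) and others did not. The 95% intervals of Ccl8 (0.43 to 2.39) and Ccl12 (-1.68 to 1.16) overlapped. So did those of Ccl6 (-0.38 to -0.18) and Ccl9 (-0.20 to -0.00072). Differences between neighbouring genes were not tested.

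**Figure D4:**
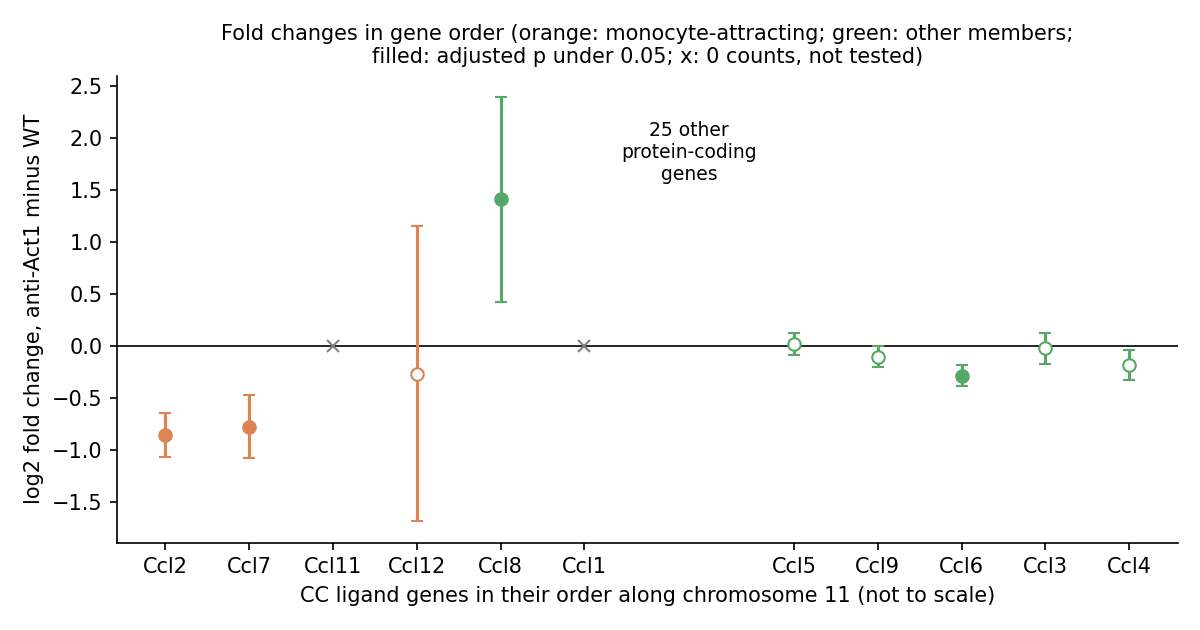
Log2 fold change (anti-Act1 minus WT) with 95% intervals of the CC ligand genes in their order along chromosome 11, not to scale; orange marks the monocyte-attracting members, green the other members, filled points an adjusted p under 0.05 and crosses genes with 0 counts. Ccl2 at -0.85 and Ccl7 at -0.77 stand at one end, Ccl8 at 1.41 is 3 places on from Ccl7, and the second run stays between -0.28 and 0.02.

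Promoter sequences from RefSeq (GRCm38.p6) were matched for 6 of the 10 members. Those of Ccl2, Ccl4, Ccl5 and Ccl7 were not analysed here. The 250 bases before the start are shown for 2 neighbouring pairs with different calls, with motif matches in capitals. The first pair is Ccl8 (chr11:82114935-82115184, plus strand), which was higher in anti-Act1, and Ccl12 (chr11:82101595-82101844, plus strand), which was not called.
Ccl8: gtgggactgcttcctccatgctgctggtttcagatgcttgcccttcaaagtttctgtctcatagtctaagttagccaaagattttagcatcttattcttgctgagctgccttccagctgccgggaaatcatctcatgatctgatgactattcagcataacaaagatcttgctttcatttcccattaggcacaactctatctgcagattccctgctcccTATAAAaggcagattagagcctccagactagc
Ccl12: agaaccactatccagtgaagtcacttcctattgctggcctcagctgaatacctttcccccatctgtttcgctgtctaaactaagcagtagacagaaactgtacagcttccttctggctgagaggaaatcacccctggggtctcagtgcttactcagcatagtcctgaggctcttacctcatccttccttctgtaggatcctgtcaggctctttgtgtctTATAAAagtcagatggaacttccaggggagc
The second pair is Ccl6 (chr11:83593088-83593337, minus strand), which was lower in anti-Act1, and Ccl9 (chr11:83578637-83578886, minus strand), which was not called.
Ccl6: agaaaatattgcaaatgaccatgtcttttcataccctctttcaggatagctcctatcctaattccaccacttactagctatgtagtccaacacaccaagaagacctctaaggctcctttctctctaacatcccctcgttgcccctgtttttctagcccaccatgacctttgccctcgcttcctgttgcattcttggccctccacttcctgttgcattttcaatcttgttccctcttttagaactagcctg
Ccl9: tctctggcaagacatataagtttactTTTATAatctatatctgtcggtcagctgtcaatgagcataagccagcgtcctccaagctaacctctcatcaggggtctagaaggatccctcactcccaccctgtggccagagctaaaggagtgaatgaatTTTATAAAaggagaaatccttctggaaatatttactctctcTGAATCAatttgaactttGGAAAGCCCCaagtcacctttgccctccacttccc
The motifs searched on both strands were TATAAA, AP-1 (TGANTCA), ISRE (GAAANNGAAA), STAT (TTCNNNGAA), C/EBP (TTNNGCAA) and the κB consensus. Ccl8 had TATAAA at -32 to -27 from the start and Ccl12 at -31 to -26, and 12.4% of 32851 promoters of the same length held it. Ccl9 had TATAAA at 3 places, of which the 2 at -94 to -89 and -92 to -87 overlap on opposite strands, an AP-1 match at -53 to -47 (6.75% of promoters) and a κB match on the opposite strand at -35 to -26 (3.90%). The windows of Ccl6, Ccl3 and Ccl22 held none of the searched motifs. ISRE, STAT and C/EBP motifs, which 2.98%, 7.02% and 9.56% of promoters held, were in none of the 6 windows. These matches describe letters in the reference and not binding in these cells.

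The rest of the CC ligand family was mostly silent. Of 14 other ligands looked for, 13 were listed, 7 had 0 counts in every library (Ccl1, Ccl11, Ccl19, Ccl20, Ccl21a, Ccl21b and Ccl26) and 3 passed the filter. None of these 3 was called by edgeR: Ccl25 had a log2 fold change of 0.10 (adjusted p = 0.780), Ccl27a of -0.23 (adjusted p = 0.651) and Ccl28 of 1.00 (adjusted p = 0.132). Ccl28 had an unadjusted p under 0.05, the 1 of the 3 that did, and DESeq2 called 0 of them. Ccl24, an eosinophil attractant, had 23 and 8 counts in WT and 2 and 4 in anti-Act1 and was left out by the filter. Without WT replicate 2 it entered the test and was called lower (-2.73, adjusted p = 0.0466). Ccl17, the other ligand of Ccr4, had at most 3 counts in a library, and Ccl27b at most 2.

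Among 15 CC receptors and decoys, 9 passed the filter, 2 were lower and 2 higher in anti-Act1, beside 20.7% called over all genes. The median log2 fold change was 0.06. Ccr2, the receptor of Ccl2, Ccl7 and Ccl12 and itself a monocyte marker, was at 5.71 and 5.43 CPM in WT and at 4.03 and 2.87 CPM in anti-Act1. Both anti-Act1 libraries were lower (log2 fold change -0.68, SE 0.16, adjusted p = 0.000893, edgeR), and the call was lost without anti-Act1 replicate 2 (-0.46, adjusted p = 0.0657) and by limma on log2(FPKM + 1) without a filter (-0.39, adjusted p = 0.0823). Ccr3, which binds Ccl7 and Ccl5 among others, was at 17.3 and 16.2 CPM in WT and at 8.40 and 8.94 CPM in anti-Act1, with no overlap (log2 fold change -0.95, SE 0.10, adjusted p = 7.14e-11, edgeR). Ccrl2, an atypical receptor that presents chemerin, rose from 131 and 132 CPM to 216 and 208 CPM (log2 fold change 0.69, SE 0.05, adjusted p = 5.89e-15, edgeR). Ackr3, a scavenging receptor of Cxcl12, rose from 17.5 and 16.0 CPM to 25.9 and 28.8 CPM (log2 fold change 0.71, SE 0.08, adjusted p = 8.88e-10, edgeR). Ccr1, the receptor of Ccl6 and Ccl9, was not called. It was at 698 ± 9.36 CPM in WT and 727 ± 24.2 CPM in anti-Act1 (log2 fold change 0.06, adjusted p = 0.469, edgeR; SD, n = 2 each). Ccr7, Ccr9 and Ccr10 were not called. Ccr4, Ccr6, Ccr8, Ackr1, Ackr2 and Ackr4 were left out by the filter, so the receptors of Ccl8 and Ccl22 were not tested here.

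The level of monocyte markers moved with that of Ccl2 and Ccl7. The 6 markers, Ccr2 among them, summed to 106 and 109 CPM in WT and to 87.0 and 85.9 CPM in anti-Act1, of which Vcan made 95.7 and 99.5 CPM and 75.3 and 76.2 CPM. Vcan and Ccr2 were lower and Ly6c2 was higher (log2 fold change 1.04, adjusted p = 4.90e-06, edgeR), and none of the 6 was at 0. Of 8 macrophage markers, Itgam and Mertk were lower and Cd14 higher. The 8 neutrophil markers summed to 7.34 and 7.21 CPM in WT and to 7.61 and 6.67 CPM in anti-Act1. Of the 6 of them tested, the granule genes Ngp (log2 fold change -2.21, adjusted p = 0.00181, edgeR) and Ltf (-1.58, adjusted p = 0.0115) and the calprotectin gene S100a9 (-1.42, adjusted p = 0.00065) were lower, and its partner S100a8 was higher (0.66, adjusted p = 0.000564). Mpo had 4 and 13 counts in WT and 0 in both anti-Act1 libraries, and Ly6g had 5 counts in WT replicate 1 and 0 in the others. In the 7 other marker lists, Cd4 alone was called (0.21, adjusted p = 0.0358). The part of any of these markers in the fall of Ccl2 and Ccl7 was not tested.

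Of 25 regulators of chemokine transcription and mRNA decay, 10 were higher and 3 lower in anti-Act1, beside 10.9% and 9.76% of all genes tested. The median log2 fold change was 0.08. The 10 included the NF-κB genes Nfkb1 (0.15), Nfkb2 (0.40) and Relb (0.52), the NF-κB inhibitor and target Nfkbia (0.71), the interferon response gene Irf7 (0.46), and Zc3h12a (0.45), whose product degrades mRNAs of inflammatory genes. Jun (0.23) and Atf3 (0.18) were also higher. Fos (-0.25), Irf5 (-0.21) and Cebpb were lower. Cebpb, a transcription factor of macrophage inflammatory genes, was at 351 and 212 CPM in WT and at 170 and 133 CPM in anti-Act1. Its WT libraries differed widely from each other but stayed above both anti-Act1 libraries (log2 fold change -0.89, SE 0.10, adjusted p = 1.09e-09, edgeR). With WT replicate 1 left out it was -0.48, with WT replicate 2 left out -1.21, and both were called. DESeq2 did not call it (adjusted p = 0.118), nor did limma on log2(FPKM + 1) without a filter (adjusted p = 0.131). Whether these genes act on the CC ligands in these cells was not tested.

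For comparison, 8 of 14 CXC ligands passed the filter, of which 4 were higher and 2 lower in anti-Act1, with a median log2 fold change of 0.54, against 1 higher and 3 lower among the 10 CC members with a median of -0.22. Of all genes tested, 10.9% were called higher and 9.76% lower. The difference between the families was not tested.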

How the data were processed

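RNA sequencing of BMDMs cocultured with MC38 cells was analysed in 2 anti-Act1 and 2 WT libraries, grouped by the labels. Per the labels, the kit was NEBNext Ultra. Per the study's methods, reads were aligned with TopHat and Bowtie; the submitters' processing notes list Bowtie 0.12.2, HTSeq 0.6.1 and the builds mm8 and mm10 with no role, so the files' build is uncertain. Annotation and strand of counting are not given in the sources used here. The authors deposited counts as whole reads per gene without normalization, and FPKM values scaled to gene length and library total. Each library held 55435063 to 75062945 counts; 6383 of 21878 genes had 0 in all, and 4 lines had repeated names.

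Counts were tested with edgeR 4.0.16 (R 4.3.3; TMM, filterByExpr, condition only, two-sided quasi-likelihood F test, Benjamini-Hochberg over 12494 genes, threshold 0.05). SE is the absolute log2 fold change over the square root of F. Named genes were the 10 members, Traf3ip2, called genes of the other lists, untested ones by name and 4 Y-linked genes; some genes of these lists are not reported here. Ccl24, Ly6c2, Vcan, Itgam, Mertk, Cd14, Ngp, Ltf, S100a8, S100a9, Mpo, Ly6g, Cd4, and the uncalled Ccl25, Ccl27a, Ccl28 and Ccr1 were given values after these were seen. The members and lists were chosen with earlier results of these data known. Alternatives were DESeq2 1.42.0, limma 3.58.1 on log2 FPKM plus 1 or 0.1 (at least 1 FPKM in 2 libraries, or no filter), other scalings and filters, thinned counts, a replicate block and each library left out. Scripts were tested on simulated counts. Figures used matplotlib 3.10.9.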

Additional observations from a re-analysis of the deposited data

How the results depend on the processing

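Across 14 alternatives, Ccl2 and Ccl7 were called lower in all 14, and Ccl3, Ccl5 and Ccl9 in none. The count of members lower in anti-Act1 was 2 to 4, and the count higher was 0 by DESeq2 and by limma on log2(FPKM + 1) without a filter and 0 to 1 with a library left out. Limma without a filter called 1091 genes in all, 582 higher and 509 lower, and limma with 0.1 added called 909 higher. With a library left out, the counts were 1671 (without anti-Act1 replicate 2) to 2543, with 1712 without anti-Act1 replicate 1, 930 to 1335 higher and 741 to 1208 lower, other CC ligands 0 to 1, the median of the monocyte-attracting group -0.81 to -0.73 and that of the other members -0.16 to -0.047. The first median was -0.83 by limma with 0.1 added and -0.67 without a filter, and the second -0.13 there and without composition normalization. Some values that were not called changed sign. With a library left out, Ccl3 ran from -0.076 to 0.033, Ccl5 from -0.021 to 0.063 and Ccl12 from -0.69 to 0.43. Ccl5 was also at -0.0060 without composition normalization, -0.0061 by limma on log2(FPKM + 1) with and without a filter and -0.0062 with 0.1 added; the causes were not tested. No scaling moved the median of all genes by over 0.1. Same-numbered replicates shared only a number (correlation of their deviations -0.0297); with the replicate block, 2406 genes were called, and no call of a member changed. Depth limits Ccl12, Ccl8 and Ccl22, at 7 to 92 counts a library.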
